A study of Mus musculus with 10 samples.

Results

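Genes that take up long-chain fatty acids or activate them were examined in mouse liver, 10 in all: the scavenger receptor Cd36, the 5 fatty acid transport proteins Slc27a1 to Slc27a5, and the 4 long-chain acyl-CoA synthetases Acsl1, Acsl3, Acsl4 and Acsl5. They were chosen by family and name, with earlier results of these data known, as every non-control probe that carries one of these gene names. They are 10 of 15806 genes with a measurable probe. They are represented by 17 of 41174 probes, of which 16 gave a signal well above background. Updating gene symbols added 0 further probes.

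Livers came from mice aged 1 year on the C57BL/6 strain. The wild-type group (WT) has 5 arrays, and the knockout group (KO), which lacks the nuclear orphan receptor TAK1/TR4 encoded by Nr2c2, has 5 arrays. Each sample's total RNA was labelled with Cy3 and read on 1 Agilent expression array. Sex, diet and the design of the deleted allele are not stated in the labels used here, and these do not say whether each sample is its own mouse, so the p-values speak only of the spread among these arrays, which may be technical.

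Long-chain fatty acids enter cells partly with the help of CD36, a membrane protein that binds them at the cell surface. The FATP proteins combine transport with acyl-CoA synthetase activity, and the ACSL enzymes join fatty acids to coenzyme A, which commits them to oxidation, triglyceride synthesis or membrane lipids. In liver, FATP2 and FATP5 are the abundant transport proteins, ACSL1 and ACSL5 are the main synthetases, and Cd36 is a known target of lipid-sensing nuclear receptors.

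Signal at the array's 75th percentile ran from 950.3 to 1344 intensity units, and 51.0% to 62.4% of probes were well above background. Arrays of a group correlated at 0.988 to 0.994 in WT and at 0.966 to 0.987 in KO. WT1 to WT4 shared slide 1, WT5 and KO1 to KO3 shared slide 2, KO5 was on slide 3, and KO4 was on slide 4, which was scanned on a later day. Genotype and slide therefore overlap in large part, and only slide 2 holds both groups. The Nr2c2 product was checked with 3 probes. The probe A_51_P335729, a cDNA described as this receptor, was well above background on 5 of 5 WT and 0 of 5 KO arrays, at least 5.25-fold lower in KO, where the bound sets a probe below background at the lowest signal measured above background on that array (adjusted p = 0.00021). The probes A_51_P368265 and A_52_P86384, named Nr2c2, differed by 0.44 ± 0.11 and 0.36 ± 0.13 on the log2 scale (standard error, SE), with adjusted p of 0.043 and 0.14. The coordinates of A_51_P335729 are listed in the direction opposite to those of the 2 probes named Nr2c2. No source used here places these probes relative to the deleted part, so the 2 probes named Nr2c2 check nothing by themselves. The hepatocyte markers Alb, Ttr and others of a list of 12 stood for the tissue label: 11 were measured, 0 passed the test (1 was lower and 1 higher at an unadjusted p under 0.05), and their summed level was 1829 to 2115 in WT and 1597 to 2233 in KO, relative to the 75th percentile.

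The probes are 60 bases long, and their coordinates are those of mouse build mm7. No annotation of that build was used, so exons, introns and untranslated regions are not assigned. The Cd36 probes are shown by their first 30 bases because the strongest finding rests on them. A_51_P375138 (mm7, chr5:16796811-16799243, a span longer than the probe) and A_51_P375146 (mm7, chr5:16796301-16796360) both have coordinates listed in descending order:
Cd36 A_51_P375138: taagtagtggatgagcctacatatacactg
Cd36 A_51_P375146: aagaatgaaaaatgaacaattcacatgtga

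The FATP probes below are shown whole because they display a stretch that related family members share. It is written GAGGGNTTN, where N is any base, and is set in capitals. It was noticed in these probes and occurs in 3 of the 17 probes examined here and in 112 of 41174 probes on the array (0.272%), read on the probe strand only. The 3 probes are those of highest signal for Slc27a2 (mm7, chr2:126328667-126328726), Slc27a4 (mm7, chr2:29822906-29822965) and Slc27a5 (mm7, chr7:11575156-11575215, listed in descending order):
Slc27a2 A_52_P154971: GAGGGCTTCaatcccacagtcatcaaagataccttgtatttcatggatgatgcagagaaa
Slc27a4 A_52_P61854: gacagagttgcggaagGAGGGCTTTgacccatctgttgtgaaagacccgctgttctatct
Slc27a5 A_51_P289742: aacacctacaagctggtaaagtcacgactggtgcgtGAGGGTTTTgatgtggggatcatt

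Acsl3 and Acsl4 are the closest relatives among the synthetases, and their probes A_51_P511560 and A_51_P268154 share 22 of 26 bases over the stretch shown, with the differing bases in capitals. It was the most alike stretch among 127 pairs of probes of different genes. Cross-hybridisation between them was not tested:
Acsl3 A_51_P511560: ttgagcgGatgtatggAAgGaaataa
Acsl4 A_51_P268154: ttgagcgAatgtatggGGgCaaataa

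Cd36 and Slc27a4 fell in the knockout liver, and 8 of the 10 genes did not pass the test. A gene is counted here by its probe of highest signal, on the log2 signal minus that array's 75th percentile (relative log2 signal), and passes where limma's adjusted p over 23263 probes is under 0.05. Of all 15806 genes, 3.26% fell by this rule and 2.23% rose. Of the 10 genes, 2 fell and 0 rose, and 4 were lower and 0 higher at an unadjusted p under 0.05, which 23.7% of all genes reached in either direction. The median difference over the 10 genes was -0.19, with 8 negative and 2 positive, against 0.01 over all genes, of which 48.1% were negative. Values of all KO arrays lay below those of all WT arrays for 2 of the 10 genes, against 5.42% of 15737 genes with a value on every array. Over single probes, 2.98% of 23263 fell.

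These counts moved with the scaling. When arrays were not scaled to each other, the median difference of all probes moved to 0.12, and 196 probes fell and 405 rose, against 694 and 479 with scaling. The 10 genes were then 7 negative and 3 positive, and 1 of them fell.

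Cd36, the fatty acid receptor, fell most among the 10 genes, on both of its probes. With A_51_P375138 its relative log2 signal was 3.05, 2.97, 2.40, 2.62 and 2.76 on WT1 to WT5, and 0.59, 1.99, 0.52, -0.15 and -0.18 on KO1 to KO5. All KO arrays were below all WT arrays, and KO2 was the highest of the knockouts, nearer to the wild type than to the other KO arrays. The mean fell from 2.76 ± 0.26 (SD, n = 5) to 0.55 ± 0.88 (SD, n = 5), a difference of -2.20 ± 0.37 (SE), or 4.60-fold lower, with a limma adjusted p of 0.012. The two-sided exact permutation test gave p = 0.0079, the smallest that 5 against 5 arrays allow. Of all genes, 45 had a lower difference.

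The other Cd36 probe, A_51_P375146, gave 2.57, 2.45, 1.92, 2.04 and 2.45 on WT1 to WT5, and -0.09, 1.45, -0.14, -0.70 and -0.77 on KO1 to KO5. The order of the arrays was much the same, with KO2 again the highest knockout and the groups apart. The difference was -2.33 ± 0.38 (SE), 5.04-fold lower, with an adjusted p of 0.0097. The gap between the 2 probes changed by -0.13 between groups, with an exact permutation p of 0.032 and 0.19 after Benjamini-Hochberg adjustment over 6 such pairs of probes.

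The Cd36 difference kept its direction and passed whichever array was left out. Leaving out each array in turn gave differences from -2.56 to -2.02 with adjusted p from 0.00045 to 0.041. Without KO2 it was -2.56 ± 0.20 (SE), since KO2 lay 1.80 above the mean of the other knockouts. On slide 2 alone, with 1 WT and 3 KO arrays, the difference was -1.72 with A_51_P375138 and -2.04 with A_51_P375146. With slide as a block it was -1.72 ± 0.56 (SE) and no longer passed, with an adjusted p of 0.38.

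**Figure D1:**
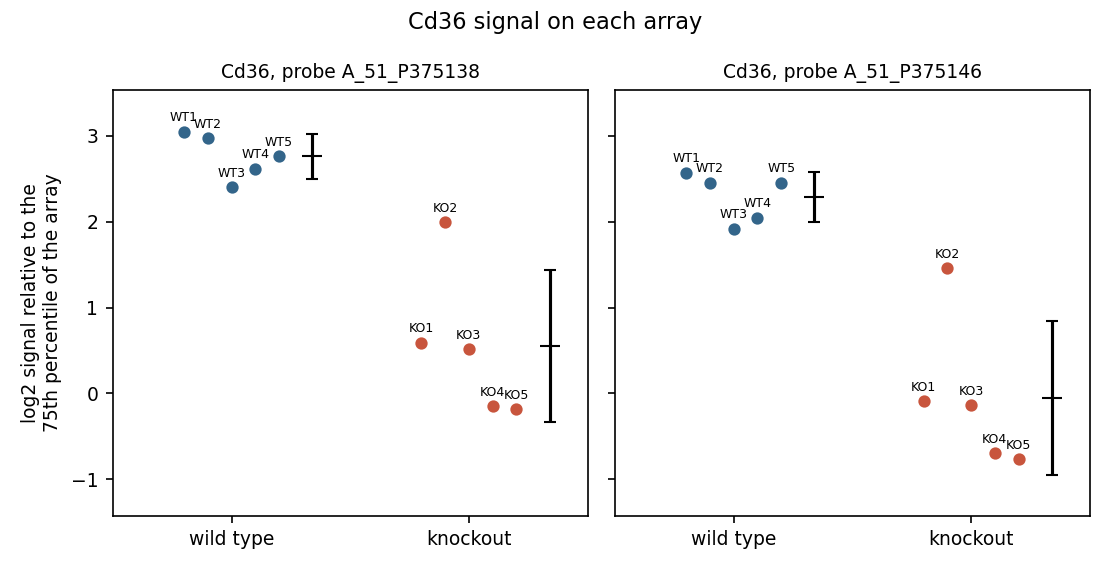
Relative log2 signal (signal minus the array's 75th percentile, y axis) of the Cd36 probes A_51_P375138 (left) and A_51_P375146 (right) on each WT and KO array; points are arrays, and black bars are the mean ± SD of 5. Every KO array lies below every WT array on both probes, and KO2 (1.99 and 1.45) lies above the other KO arrays.

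Adipocytes, macrophages and endothelial cells also express Cd36, so markers of these cells are given beside it. Of 12 adipocyte markers, 6 were measured and 4 fell, beside 3.26% of all genes. Of the 4 markers above background on all 10 arrays, 2 fell. Those 2 were Cfd, the complement factor D or adipsin, by 5.72 ± 0.76 on the log2 scale (SE; adjusted p = 0.0040), and Cidec, a lipid droplet protein, by 4.85 ± 0.53 (SE; adjusted p = 0.0016). The other 2 were kept through their WT signal and are given no size: Pnpla3, a droplet lipase, was well above background on 5 WT and 2 KO arrays, and Cox8b, a respiratory chain subunit of brown fat and muscle, on 5 WT and 0 KO arrays. Cidec and Pnpla3 are also known in fat-laden hepatocytes. Summed over the list, the level was 24.8 to 60.3 in WT and 4.75 to 9.45 in KO, relative to the 75th percentile. The defining adipocyte markers Adipoq, Lep, Adrb3 and Ucp1 were above background on 0 of 10 arrays, Plin1 on 1 and Retn on 3, and Fabp4 differed by -0.25 ± 0.14 (SE; adjusted p = 0.31).

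Macrophage and Kupffer cell markers gave 14 of 14 measured, 2 higher at an unadjusted p under 0.05 and 1 by the adjusted test, the scavenger receptor Cd163 (0.91 ± 0.22, SE; adjusted p = 0.045), with a median difference of 0.30 and sums of 71.9 to 148.3 in WT and 65.4 to 163.1 in KO. Endothelial markers gave 14 of 14 measured, 13 positive, 8 higher at an unadjusted p under 0.05 and 1 by the adjusted test, Flt4 (0.58 ± 0.12, SE; adjusted p = 0.027), with a median of 0.33 and sums of 37.7 to 51.6 in WT and 51.7 to 87.7 in KO. Leaving out 1 array, Cd163 passed in 1 of 10 fits and Flt4 in 5. With no filter or with the replicate block, neither passed. Stellate cell, cholangiocyte, lymphocyte and erythroid lists each had 0 genes past the adjusted test. At an unadjusted p under 0.05 these had 2, 1, 0 and 0 genes higher and 0, 0, 0 and 2 lower. Of all genes, 2.23% rose by the adjusted test, 23.7% reached that unadjusted p in either direction, and 48.1% were negative. The part of any of these cell types in the Cd36 difference was not tested, and in whole liver RNA fewer cells of a type and less RNA per cell cannot be told apart.

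Gpat3 was the gene most like Cd36 over the 10 arrays. The measure is Pearson's r of relative log2 signal between the gene and Cd36 over 10 arrays, among 12973 genes with a current symbol and all 10 values, as a description without a test, since all points share the group difference and the arrays' scaling. Gpat3, which adds the first acyl chain in triglyceride synthesis, had the highest r at 0.991, and its difference was -1.94 ± 0.32 (SE; adjusted p = 0.011). After the group means were removed, r was 0.958, and 0.840 over the 9 arrays without KO2, which was the highest knockout for both genes. Next were Bdh1 (r = 0.975), a ketone body enzyme, Ifi27l2b (r = 0.975), Naa20 (r = 0.974) and Cidec (r = 0.973). The most opposite were Tshz1 (r = -0.979), Zfp868 (r = -0.971) and Ocel1 (r = -0.969).

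Because PPAR and RXR proteins bind direct repeats of a hexamer, the sequence from 250 bases upstream of the Cd36 start to the start was scanned. The window is given in build GRCm38.p6 as chr5:17835897-17836146 on the minus strand, from the RefSeq promoter table. Capitals mark the closest match to the direct repeat AGGTCANAGGTCA, 63 bases upstream on the opposite strand with 2 mismatches, and the hexamer AGGTCA, 228 bases upstream on the opposite strand:
Cd36 upstream: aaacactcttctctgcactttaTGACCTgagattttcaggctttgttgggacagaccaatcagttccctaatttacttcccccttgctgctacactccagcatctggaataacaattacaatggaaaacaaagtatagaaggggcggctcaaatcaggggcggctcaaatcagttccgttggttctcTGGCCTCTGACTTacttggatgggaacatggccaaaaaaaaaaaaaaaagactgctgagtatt

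Both strands of 300-base windows were scanned, from 250 bases before to 50 after each start, which gave 12 windows for 9 of the 10 genes. The exact repeat was in 0 of 12, against 13 of 32851 windows of the table (0.040%). With up to 2 mismatches it was in 1 of 12, that of Cd36, against 3.86% of all windows. The hexamer, which is part of the repeat, was in 2 of 12, those of Cd36 and Slc27a2, against 16.3% of all windows. A match is a description of letters and not a bound site.

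Among the transport proteins, Slc27a4 was lower and the other 4 genes did not pass the test. Slc27a4, which encodes FATP4, gave 0.90, 0.70, 0.29, 0.58 and 0.52 on WT1 to WT5 and 0.17, -0.0033, 0.011, 0.21 and 0.21 on KO1 to KO5 with A_52_P61854. The lowest wild type, WT3, was just above the highest knockouts, so the groups did not overlap. The difference was -0.48 ± 0.11 (SE), 1.39-fold lower, with an adjusted p of 0.038 and an exact permutation p of 0.0079.

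When each array was left out in turn, Slc27a4 passed in 2 of 10 fits, without WT3 or without KO1, and the highest adjusted p was 0.10, without WT2. On slide 2 alone the difference was -0.46, and with slide as a block the adjusted p was 0.59. The further probe A_51_P408609, above background on 5 WT and 4 KO arrays, gave -3.05, -3.34, -3.76, -3.42 and -3.15 in WT and -4.21, -3.69, -4.23, -3.64 and -3.60 in KO. There the groups overlapped, and the difference of -0.53 ± 0.17 (SE) did not pass (adjusted p = 0.11).

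The abundant liver transport proteins had small differences that did not pass. Slc27a5, encoding FATP5, a bile acid and very long-chain acyl-CoA synthetase, gave 7.26, 7.23, 7.12, 7.24 and 7.24 in WT and 7.06, 6.81, 7.07, 7.16 and 7.07 in KO. The highest knockout, KO4, was above WT3 and below the other wild types. The difference was -0.19 ± 0.08 (SE), with a limma adjusted p of 0.18 and an exact permutation p of 0.016. Slc27a2, encoding FATP2, gave 6.71, 6.84, 6.69, 6.72 and 6.83 in WT and 6.53, 6.27, 6.69, 6.81 and 6.58 in KO with A_52_P154971. The knockouts spread around and below the wild types, and the difference was -0.18 ± 0.10 (SE; adjusted p = 0.30).

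A further Slc27a2 probe, A_51_P484551, differed by -0.11 ± 0.16 (SE; adjusted p = 0.72). Probe A_52_P1083677 is from a cDNA whose coordinates are listed in the direction opposite to the other Slc27a2 probes, and 0 of 10 arrays showed it well above background.

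The remaining transport proteins overlapped between groups. Slc27a1, encoding FATP1, which muscle and adipose tissue express more than liver does, gave -0.62, -0.19, -0.27, -0.25 and 0.23 in WT and -0.60, -0.71, -0.27, -0.19 and -0.33 in KO. The difference was -0.20 ± 0.16 (SE; adjusted p = 0.49). Slc27a3, encoding FATP3, was near the lower limit, above background on 5 WT and 4 KO arrays. It gave -4.11, -4.31, -3.98, -3.94 and -4.27 in WT and -4.11, -4.38, -3.79, -3.69 and -4.23 in KO, a difference of 0.09 ± 0.14 (SE; adjusted p = 0.76).

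None of the 4 long-chain acyl-CoA synthetases passed the test, and the differences of all 4 were smaller in size without KO2. Acsl5, which supplies acyl-CoA for triglyceride synthesis, gave 5.95, 5.88, 5.62, 5.65 and 5.71 in WT and 5.73, 4.27, 5.44, 5.30 and 5.32 in KO. KO2 was far below the other knockouts, and KO1 lay within the wild-type range. The difference was -0.55 ± 0.23 (SE), with an adjusted p of 0.20 and an exact permutation p of 0.032. Without KO2 it was -0.31 ± 0.11 (SE; adjusted p = 0.14).

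Acsl1, a PPAR target on the outer mitochondrial membrane and endoplasmic reticulum, gave 6.86, 7.16, 7.24, 7.24 and 7.47 in WT and 7.21, 5.88, 7.15, 7.005 and 7.04 in KO with A_51_P496432. Every knockout but KO2 lay within the wild-type range. The difference was -0.34 ± 0.24 (SE; adjusted p = 0.44), and -0.09 ± 0.12 (SE) without KO2. Its further probes A_52_P597618 and A_51_P463452 differed by -0.30 ± 0.30 and -0.39 ± 0.31 (SE), and KO2 was the lowest array on both, at 2.81 and 2.56.

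Acsl4, which prefers arachidonic acid, had a positive difference, as Acsl3 did too when arrays were not scaled to each other (0.057). With A_52_P78203 it gave 3.73, 3.93, 3.74, 3.43 and 3.74 in WT and 4.15, 5.15, 3.84, 3.65 and 4.13 in KO, and KO2 was the highest array. The difference was 0.47 ± 0.25 (SE; adjusted p = 0.29), and 0.23 ± 0.13 (SE) without KO2. The probe A_51_P268154 gave 1.62, 1.74, 1.66, 1.32 and 1.66 in WT and 2.01, 3.56, 1.70, 1.70 and 1.98 in KO, a difference of 0.59 ± 0.32 (SE; adjusted p = 0.30). Acsl3, a lipid droplet synthetase, gave 0.51, 0.96, 1.15, 0.52 and 1.05 in WT and 0.88, 0.64, 0.86, 0.78 and 0.78 in KO. The knockouts lay inside the wild-type range, and the difference was -0.05 ± 0.14 (SE; adjusted p = 0.85).

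**Figure D2:**
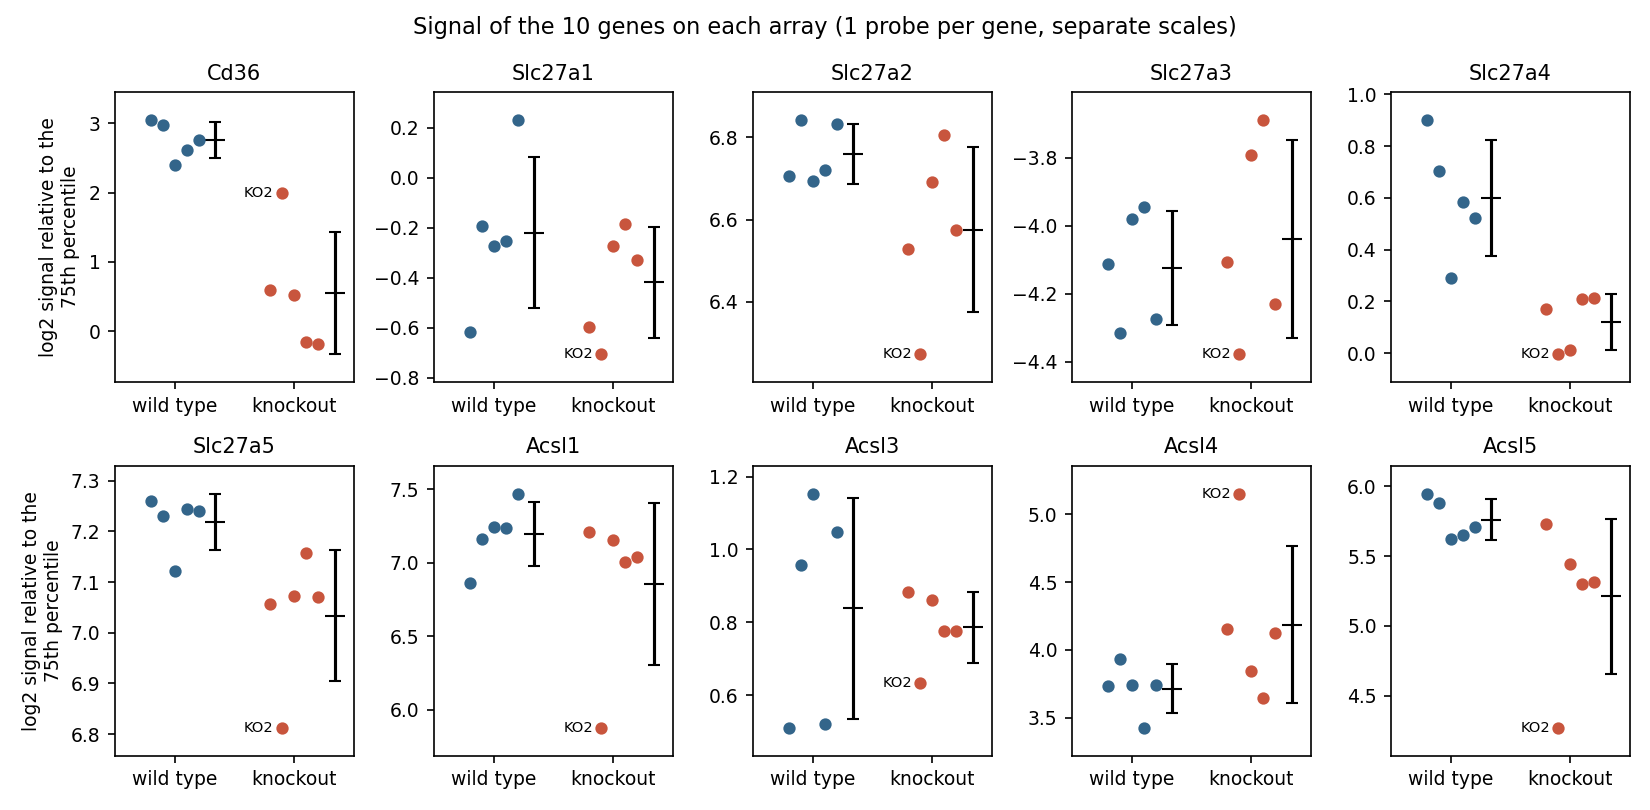
Relative log2 signal (y axis, a separate scale for each gene) of the 10 genes on the WT and KO arrays, by the probe of highest signal; points are arrays, black bars are mean ± SD of 5, and KO2 is labelled. Cd36 and Slc27a4 show no overlap between groups, and KO2 is the lowest knockout for 8 genes and the highest for Cd36 and Acsl4.

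KO2 stood apart for these genes. It was the lowest of the 5 knockouts for 8 genes and the highest for 2, so that it was an extreme for all 10, against 55.5% of all genes. It lay 1.80 above the mean of the other knockouts for Cd36 and 1.21 above for Acsl4, and its difference from that mean was -1.22 for Acsl1 and -1.18 for Acsl5. In the same array the summed hepatocyte markers, at 1597, and the erythroid list, at 35.6, were the lowest of all 10 arrays. Neither list moved as one. In relative log2 signal, KO2 had the lowest Ass1 (5.17) and Tat (5.24) of all 10 arrays but the highest Hnf4a (3.93). Of the erythroid list, Alas2 was lowest in KO2 (2.24), while Hba-a1 (4.91) lay within the wild-type range. The cholangiocyte list, at 21.5, was the highest, but its genes did not move together either. In relative log2 signal, KO2 had the highest Spp1 of all 10 arrays (4.35) and the lowest Krt7 (-2.30) and Krt19 (-3.43). Epcam and Sox9 were at neither end in KO2. The adipocyte list, at 9.45, was the highest of the 5 knockouts, as Cd36 was, but not all of its genes were. Among the knockouts, KO2 had the highest Fabp4 (2.66), Cidec (1.11) and Cfd (-0.47) but the lowest Lipe (-2.32). Pnpla3 and Cox8b were at neither end. Their part in the values of KO2 was not tested. Without KO2, 1 of the 10 genes fell, which was Cd36, and Slc27a4 had an adjusted p of 0.059.

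**Figure D3:**
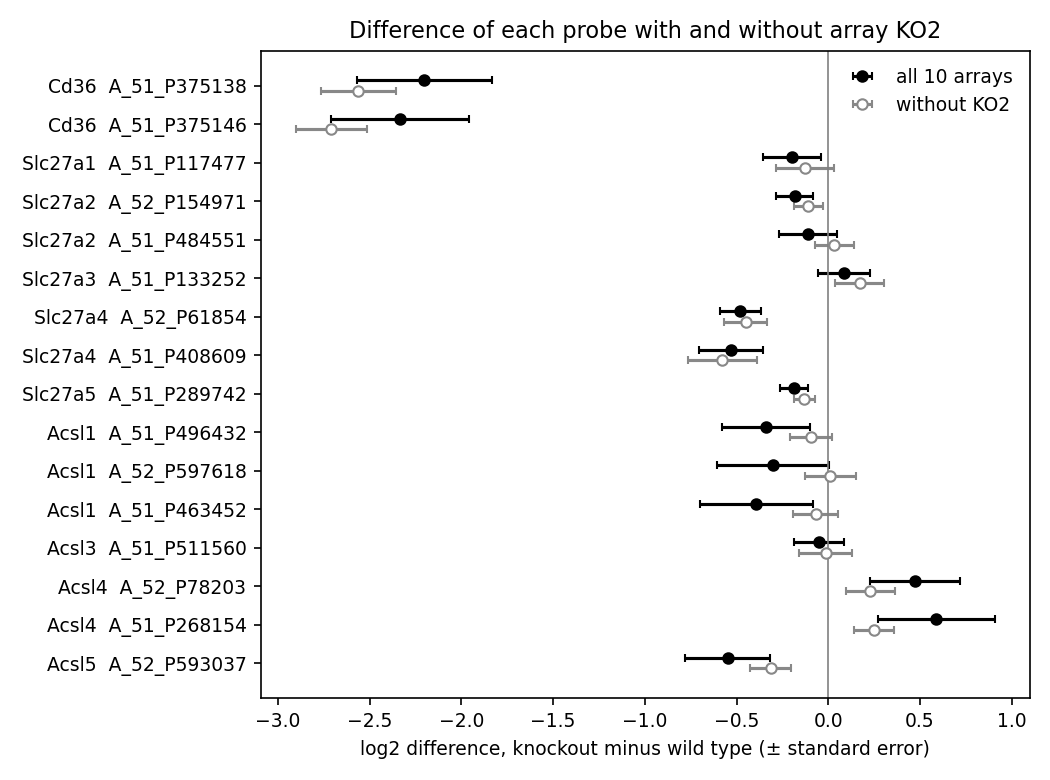
Difference between KO and WT in relative log2 signal (x axis, ± SE) for the 16 measured probes of the 10 genes (y axis), from all 10 arrays (filled) and without KO2 (open). Cd36 moves from -2.20 to -2.56 without KO2, while Acsl1, Acsl4 and Acsl5 move toward 0.

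The 5 genes with more than 1 measured probe had the same sign on each of their probes, and 0 of the 17 probes were saturated. The gap between 2 probes of 1 gene changed between groups by -0.06 to 0.12 outside Cd36, with exact permutation p from 0.38 to 0.71 (0.71 after adjustment over the 6 pairs). Correlations within groups, over arrays with the group means removed, are given as a description. Some pairs changed little without KO2. Slc27a1 against Slc27a2 had r = 0.710 over 10 arrays and 0.673 without KO2, and Slc27a3 against Acsl4 had -0.832 and -0.877. Other pairs, such as those that follow, rested on KO2. Acsl5 against Slc27a5 had r = 0.810 over 10 arrays and 0.032 without KO2, and Acsl5 against Acsl1 had 0.815 and -0.185. Acsl4 against Acsl5 had -0.719 and 0.545, a change of sign. Cd36 against Acsl1 had -0.808 and -0.022, Cd36 against Acsl4 had 0.852 and 0.335, and Cd36 against Acsl5 turned from -0.633 to 0.884.

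Among genes that use the acyl-CoA made by these enzymes, in oxidation, peroxisomal import, glycerolipid synthesis and thioester hydrolysis, 29 of 29 were measured. Of these, 6 fell and 0 rose (16 and 0 at an unadjusted p under 0.05). Of all genes, 3.26% fell, 2.23% rose and 23.7% reached that unadjusted p in either direction. The median difference of the list was -0.35, and all 29 were negative, against 48.1% of all genes. Like the other lists, this list was chosen with earlier results of these data known. Without scaling between arrays 21 were negative and 4 fell. With background correction by normexp and the 75th percentile 26 were negative and 2 fell. With no filter or with the replicate block 3 fell, and when 1 array was left out 28 or 29 were negative. Summed over the list, the level was 829.8 to 908.1 in WT and 573.5 to 766.6 in KO, so the groups did not overlap, and KO2 was the lowest. The sums of the binding, delivery and regulator lists given below did not overlap either, and KO2 was again the lowest. The lowest WT and highest KO sums were close for binding (628.4 and 624.2) and delivery (494.1 and 487.2). Sums without scaling between arrays were not taken. The sums of the family relatives overlapped. A sum weighs abundant genes most. Of glycerolipid synthesis, 3 genes fell: Mogat1, a monoacylglycerol acyltransferase, by 3.64 ± 0.28 on the log2 scale (SE; adjusted p = 0.00048, without a value for WT5), Gpat3 by 1.94 ± 0.32 and Gpam, the mitochondrial glycerol phosphate acyltransferase, by 1.60 ± 0.33 (adjusted p = 0.026).

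In the same list, the acyl-CoA thioesterases Acot2 and Acot13 fell by 1.19 ± 0.22 (SE; adjusted p = 0.018) and 0.64 ± 0.11 (SE; adjusted p = 0.014). Slc25a20, the mitochondrial carnitine carrier, fell by 0.46 ± 0.07 (SE; adjusted p = 0.0079). Cpt1a, the entry enzyme of mitochondrial oxidation, differed by -0.09 ± 0.07 (SE; adjusted p = 0.47). Leaving out 1 array, Gpam passed in 5 of 10 fits, Acot2 in 9, and the other 4 in all 10. On slide 2, 27 of 28 were negative with a median of -0.42. With slide as a fixed block, 0 of the 28 passed the test.

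Among genes that bind or deliver fatty acids, 1 of each list fell, beside 3.26% of all genes. With slide as a fixed block, 0 of either list fell. Of 14 binding genes, 12 were measured, 4 were lower and 2 higher at an unadjusted p under 0.05, and 1 fell: Fabp2, a fatty acid binding protein known from intestine, by 0.98 ± 0.23 on the log2 scale (SE; adjusted p = 0.041), which passed in 3 of 10 fits that left out an array. The abundant Fabp1 of liver differed by -0.07 ± 0.10 (SE; adjusted p = 0.70). Of 12 delivery genes, 11 were measured, 4 were lower and 1 higher at an unadjusted p under 0.05, and 1 fell: Apoc2, the activator of lipoprotein lipase, by 0.45 ± 0.08 (SE; adjusted p = 0.013). The lipoprotein receptor Vldlr differed by -1.49 ± 0.46 (SE; adjusted p = 0.094), and Lpl, the lipase itself, by 0.86 ± 0.30 (SE; adjusted p = 0.13).

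Family relatives of the 10 genes did not pass the test. Of 8 relatives, 4 were measured, with 0 past the test, also at an unadjusted p under 0.05, and a median of 0.17. Acsl6 was kept through its KO signal, well above background on 1 WT and 4 KO arrays, and is given no size. The 3 relatives above background on all 10 arrays had a median of 0.13. The scavenger receptor Scarb1 differed by 0.13 ± 0.16 (SE; adjusted p = 0.67), and Scarb2, a lysosomal membrane protein of the CD36 family, by 0.21 ± 0.11 (SE; adjusted p = 0.27). The probes of the transport protein Slc27a6 and of Acsbg2 were above background on 0 arrays.

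Of 20 regulators, 19 were measured and 2 fell, beside 3.26% of all genes. At an unadjusted p under 0.05, 6 were lower and 1 higher. The higher one was Nr2c2 itself, by the probe A_52_P86384. Pparg, a lipid-sensing nuclear receptor known to act on Cd36, fell by 0.93 ± 0.10 on the log2 scale (SE; adjusted p = 0.0012), in all 10 fits that left out an array. Srebf1, the factor that drives lipid synthesis genes, fell by 1.21 ± 0.28 (SE; adjusted p = 0.039), in 2 of 10 such fits. Ppara, the regulator of fatty acid oxidation, differed by -0.60 ± 0.15 (SE; adjusted p = 0.051). Rxra, which encodes a partner receptor of the PPAR proteins, differed by -0.06 ± 0.08 (SE; adjusted p = 0.71). The median over the 19 was -0.16, with Nr2c2 included. On slide 2 alone Pparg differed by -0.96 and Srebf1 by -1.23. With slide as a fixed block, 0 of the 19 passed the test.

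**Figure D4:**
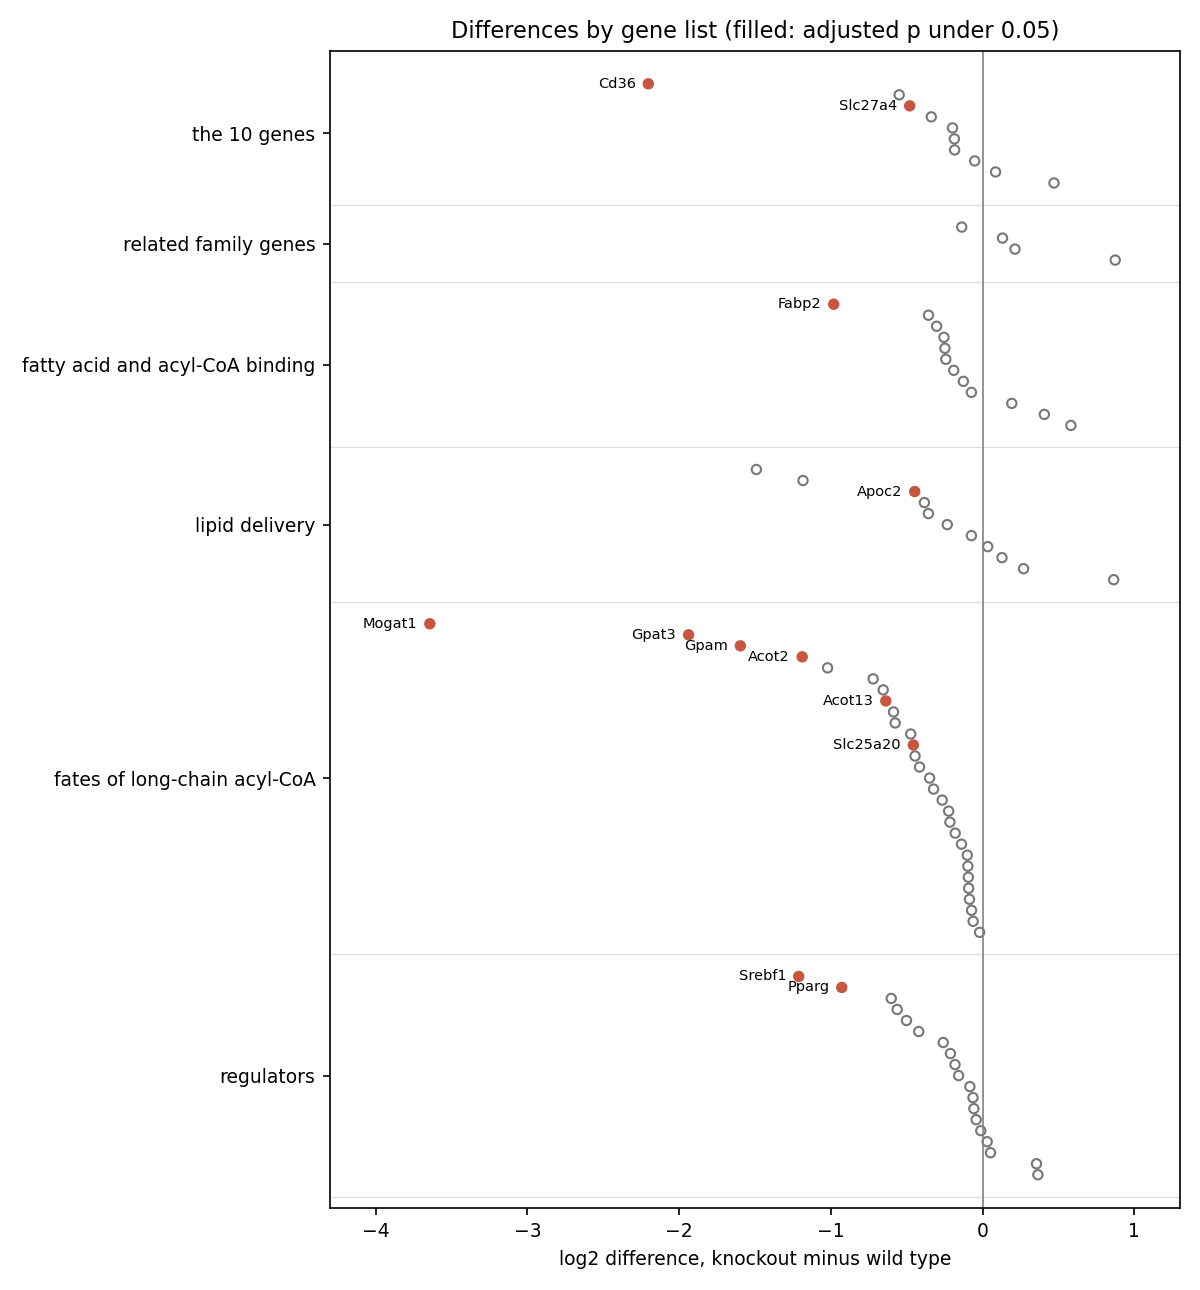
Difference between KO and WT in relative log2 signal (x axis) for the 10 genes and the measured genes of 5 related lists (y axis, ordered by difference within a list); filled points passed limma's adjusted p of 0.05 and are named. Cd36 and Slc27a4 fell among the 10 genes, and all 29 genes that use acyl-CoA lie below 0 (21 without scaling between arrays), from Mogat1 at -3.64 upward.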

How the data were processed

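Per the file headers, the authors read the images with Agilent Feature Extraction, release 9.5.1.1 (9.5 per the submitters' processing notes). Intensity values as deposited had background removed and were detrended array by array, with no step across arrays. The series table repeated these values on every array. The flags deposited with them, well above background, saturated and outlier, were used as given. Precision rests on 5 arrays in each group, and probes near background are also limited by signal.

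Log2 was taken of the processed intensities, and each array's 75th percentile over non-control spots was subtracted. Outlier spots were set to missing, and spots of a probe were averaged. Of 41174 probes, 23263 were kept, by the rule that 4 or more of the 5 arrays of either group show a signal well above background. Differences were tested with limma 3.58.1 in R 4.3.3 (lmFit, eBayes, genotype only), with p-values adjusted by Benjamini-Hochberg over all kept probes and 0.05 as the threshold; the fit was tested on simulated data. A gene is its kept probe of highest mean signal. Current gene symbols came from a RefSeq table (GRCm38.p6), which matched 22951 probes by accession, 6659 by symbol and 3109 by synonym; 8455 kept the name in the file. The genes named are the members, all called genes of each list with a few central ones, and the 5 most and 3 least like Cd36.

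The 10 genes and all lists were chosen with earlier results of these data known. From the list of genes that use acyl-CoA, 1 gene is not reported here. The exact permutation test of 5 against 5 arrays was two-sided over 252 splits. The alternatives were other background corrections and scalings, other filters, slide and replicate blocks and arrays left out, and all are in the closing section. Same-numbered samples of both groups had deviations correlated at -0.20 to 0.05, so the numbers do not pair them.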

Additional observations from a re-analysis of the deposited data

Results flagged for a closer look

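Each group of 5 arrays of each measured probe was checked for a highest or lowest value far from the rest by Dixon's ratio, 32 groups in all. Chance alone picks about 1 in 20 groups, and 5 were picked, of which 4 concern KO2. The groups are not independent, since 3 of the 5 are probes of Acsl1 on that array, so the 2 counts are not directly comparable. For Acsl1, KO2 was far below the other knockouts on all 3 probes, at 5.88 (A_51_P496432; the next array was at 7.005), 2.81 (A_52_P597618; next 4.27) and 2.56 (A_51_P463452; next 4.10). For Acsl4, KO2 was far above the others on A_51_P268154, at 3.56 (next 2.01). For Slc27a5, WT3 was below the other wild types, at 7.12 (A_51_P289742; next 7.23). Values are relative log2 signals.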

How the results depend on the processing

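Over the 10 genes' 16 probes, Cd36 kept its direction under all alternatives run and passed the test except on slide 2 alone and with slide as a fixed block (-1.72 in both for A_51_P375138). Of the 10 genes, 2 fell, but 1 did with no filter, no scaling, normexp with the 75th percentile, the replicate block or without KO2 and KO4 (chosen after seeing the data), 0 did on slide 2 alone or with slide as a fixed block, and 1 to 2 did when 1 array was left out; the gene lost at a count of 1 was Slc27a4. In the fit with the replicate block 139 probes fell and 82 rose. Over all kept probes, 694 fell and 479 rose. The other counts were 195 and 93 with no filter, 75 and 20 with normexp and the 75th percentile, 28 and 17 with slide as a fixed block (1132 and 1060 at an unadjusted p under 0.05), 0 and 2 on slide 2 alone (521 and 448 unadjusted), 1061 and 802 with slide as a random block (consensus correlation -0.085), 361 and 240 without KO2 and KO4, and 196 fell without scaling. Leaving out 1 array gave 221 to 889 lower, lowest without WT2, and 127 to 689 higher.

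Signs turned for 5 probes, none of which passed the test on all arrays with the 75th percentile. Slc27a2 A_51_P484551 ran from -0.19 to 0.033 and Acsl1 A_52_P597618 from -0.43 to 0.010 as 1 array was left out (0.0079 for the latter without KO2 and KO4). Acsl3 ran from -0.13 to 0.027 as 1 array was left out, and was 0.057 without scaling and 0.0023 without KO2 and KO4. Slc27a3 ran from -0.0015 to 0.17, and was -0.039 with quantile normalization, and Slc27a4 A_51_P408609 was 0.053 with normexp and the 75th percentile, though it passed with quantile normalization with or without normexp. The cause was not tested. Slide and genotype cannot be told apart beyond slide 2, which has 1 WT array, and probes near background, such as Slc27a3, are limited by signal.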
